A study of Homo sapiens with 6 samples.

Results

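Genes of the unfolded protein response and of ER-associated degradation were followed in large and small cells of MUG-Chor1, a cell line derived from a chordoma, a bone tumour that arises from remnants of the notochord. The list holds 38 genes. A gene was measured by the probe sets that the platform annotation assigns to its symbol alone, and of several such probe sets the one with the highest mean over all 6 arrays was kept. By this rule 37 of the 38 genes were measured, of 18404 genes on the array. They fall into 11 sensors and transcription factors, 13 folding factors of the ER and 13 components of ER-associated degradation.

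Large physaliferous cells, the vacuole-rich cells typical of chordoma, were set against small non-vacuolated cells of the same line, with no drug treatment or engineered allele stated for either. Each phenotype is represented by 3 pools of 20 cells, labelled large 2, 3 and 4 and small 5, 6 and 7. The cells were grown in serum-containing medium, trypsinized and picked by micromanipulation, and their RNA was amplified to cDNA and hybridised to whole-transcript arrays. All pools come from 1 cell line, and nothing in the sources states that they came from separate cultures, so the p-values cover the spread between these pools alone, and that spread may be technical. The values are log2 expression, so a log2 fold change of 0 means equal signal. In such pools fewer cells with a transcript and less of it per cell cannot be told apart.

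The ER folds secreted and membrane proteins, and the unfolded protein response adjusts its capacity to the load. The membrane sensors IRE1 (ERN1), PERK (EIF2AK3) and ATF6 respond to misfolded protein, and their branches act through spliced XBP1, through translation of ATF4 and through the cleaved form of ATF6, raising chaperones, oxidoreductases and degradation factors. Proteins that do not fold are recognised by lectins, moved back across the membrane through the SEL1L and SYVN1 ubiquitin ligase complex, extracted by VCP and degraded by the proteasome. Splicing of XBP1, cleavage of ATF6 and phosphorylation of the kinases are not read by a probe set for the gene.

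The 7 chordoma and notochord markers (TBXT, KRT8, KRT18, KRT19, VIM, CD24 and SOX9) all lay above the expression floor, a signal of 100 or 6.64 on the log2 scale reached in at least 2 of the 6 arrays. Their summed signal spanned 13.65 to 13.70 in large pools and 13.60 to 13.66 in small pools on the log2 scale. Of 13 fibroblast markers 11 had a log2 fold change below 0, as had 66.4% of all genes, while FBN1 had 0.92. All large pools lay above all small pools in FBN1 alone, against 5.48% of all genes. They lay below all small pools in 4 markers, COL1A1, COL3A1, MMP2 and ACTA2, against 21.6% of all genes. The markers' summed log2 signal spanned 11.30 to 11.47 in large pools and 11.40 to 11.70 in small pools. Of the 4 leukocyte markers measured, PTPRC and LYZ lay under 6.64 in all 6 arrays, CD3E exceeded it in 1 large pool, and CD14 exceeded it in 1 of 3 large and 3 of 3 small pools. Of the 4 endothelial markers, PECAM1, VWF and CDH5 lay under it in all 6 arrays, and KDR exceeded it in all 6. The part of these cell types in the members' values was not tested. Array medians were 6.64 to 6.68 in large pools and 6.73 to 6.76 in small pools, and over all genes the log2 fold changes had a median of -0.11. The part of this shift in the values of single genes was not tested.

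No member passed the test between the phenotypes. With limma and Benjamini-Hochberg adjustment over all 18404 genes, the members' adjusted p ran between 0.32 and 0.99, and 0.0% of all genes passed at 0.05. In an alternative fit, after a filter on level and variation that kept 2062 genes, 2 genes passed, neither of them a member. At an unadjusted p under 0.05, 4 of the 37 members (10.8%) were higher in large pools, namely XBP1, DDIT3, ERO1A and SEL1L, against 4.33% of all genes. In the other direction 1 member (2.7%), DERL3, was lower in large pools, against 10.5% of all genes. When each array was centred on its median, these shares of all genes became 6.56% and 3.9%, so the split of all genes depends on the scaling. The 3 large pools lay wholly above the 3 small pools in 4 members, against 5.48% of all genes, and wholly below them in 2 members, DERL3 and EDEM2, against 21.6% of all genes. With 3 pools a side a two-sided exact permutation test of a single gene cannot go below 0.1.

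Most members are bright on the array, and brighter genes as a whole leaned towards large pools. Of the 37 members 36 passed the expression floor, the exception being ERO1B, and among all 11694 genes that passed it 5.65% were higher and 9.37% lower in large pools at an unadjusted p under 0.05. When all genes were cut by mean signal into 10 classes of about equal size, the 2 highest classes, which hold 25 of the members, had a different share: 9.75% of 3681 genes were higher in large pools and 2.61% were lower. The members there had 3 of 25 (12.0%) higher and 0 lower, so their share lay close to that of equally bright genes. Their median log2 fold change was 0.07, against 0.08 for all genes of those classes. The 12 members of the 8 lower classes had a median of -0.11, against -0.14 for all genes there. Of these 12 members 1 (8.33%), XBP1, was higher, against 2.97% of all genes there. In the other direction 1, DERL3, was lower, against 12.5%.

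**Figure D1:**
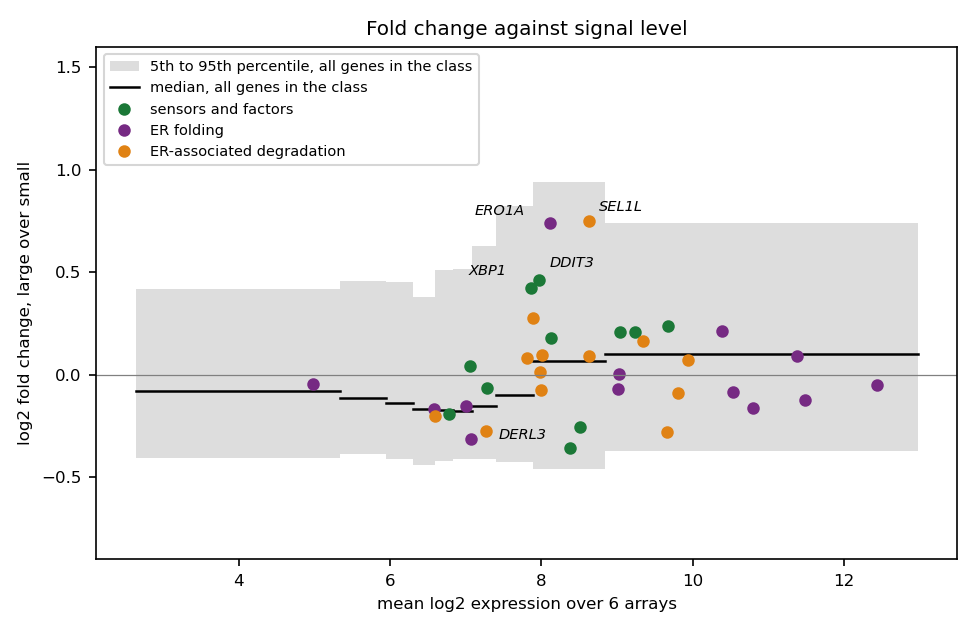
Log2 fold change, large over small, of each of the 37 members (points, coloured by role) against mean log2 expression over the 6 arrays. Grey steps span the 5th to 95th percentile of all genes in each of 10 classes of level and black lines their median; all 37 members lie within the grey steps, and the median of all genes is above 0 only in the 2 highest classes.

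Among the 11 sensors and factors 7 had a log2 fold change above 0 and 4 below, with a median of 0.18. With single pools left out this median spanned 0.0579 to 0.166 and was lowest without large pool 3. Over all genes 33.6% lay above 0, with a median of -0.11, and genes of the 2 highest classes of signal had a median of 0.08. The factors XBP1 and DDIT3 stood apart between the phenotypes, while the sensors did not. XBP1, whose spliced form drives chaperone and degradation genes, had a log2 expression of 8.38, 8.01 and 7.85 in large pools 2, 3 and 4, against 7.59, 7.78 and 7.60 in small pools 5, 6 and 7. Large pool 2 was highest, and the lowest large pool lay 0.07 above the highest small pool. The means were 8.08 ± 0.27 in large pools and 7.66 ± 0.11 in small pools (SD, n = 3 each), a log2 fold change of 0.43 (SE 0.16, 95% confidence interval 0.03 to 0.82, 1.34-fold) with an adjusted p of 0.33 in limma. Without large pool 2 the log2 fold change of XBP1 was 0.27, with an unadjusted p above 0.05.

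The promoter of XBP1 is shown because it carries an ER stress response element (ERSE), the site at which NF-Y and cleaved ATF6 are known to bind. It is the RefSeq window of 250 bases before to 50 after the start, chr22:28800520-28800819 of GRCh38.p14, minus strand, with the element in capitals.
XBP1: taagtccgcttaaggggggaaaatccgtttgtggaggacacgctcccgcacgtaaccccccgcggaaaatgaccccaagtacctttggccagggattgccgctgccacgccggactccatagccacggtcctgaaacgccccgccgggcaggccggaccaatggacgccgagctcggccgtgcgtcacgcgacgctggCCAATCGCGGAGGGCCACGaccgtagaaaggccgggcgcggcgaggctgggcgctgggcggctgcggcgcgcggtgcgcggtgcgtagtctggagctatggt

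DDIT3 encodes CHOP, the factor of prolonged ER stress that acts downstream of ATF4. Its log2 expression was 8.35, 8.30 and 7.94 in large pools 2, 3 and 4, against 7.70, 7.69 and 7.81 in small pools 5, 6 and 7. All large pools lay above all small pools, by at least 0.13, and the small pools were close together. Means of 8.20 ± 0.22 in large pools and 7.73 ± 0.06 in small pools (SD, n = 3 each) gave a log2 fold change of 0.46 (SE 0.14, 95% confidence interval 0.13 to 0.80, 1.38-fold) with an adjusted p of 0.32 in limma.

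ATF4, the translationally controlled factor of the PERK branch, had a log2 expression of 9.41, 10.11 and 9.86 in large pools 2, 3 and 4, against 9.68, 9.49 and 9.50 in small pools 5, 6 and 7. Large pool 2 was the lowest of all 6, and the groups overlapped. The log2 fold change was 0.24 (SE 0.19, adjusted p = 0.52 in limma). A second ATF4 probe set, dimmer and not used, had 7.22, 7.06 and 7.05 in large pools, against 7.54, 7.29 and 7.55 in small pools. Its large pools all lay below its small pools, as in 21.6% of all genes. The means were 7.11 in large pools and 7.46 in small pools, a difference of -0.35, so the 2 probe sets disagree in sign. The direction of ATF4 is therefore unsettled on this array.

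The 3 sensors overlapped between the phenotypes. EIF2AK3, the kinase PERK, had 8.33, 8.46 and 7.85 in large pools 2, 3 and 4 and 8.02, 7.97 and 8.11 in small pools 5, 6 and 7 on the log2 scale, with large pool 4 the lowest of all. ATF6, the sensor cleaved in the Golgi, had 9.48, 9.08 and 9.46 in large pools and 8.84, 9.19 and 9.35 in small pools. Their log2 fold changes were 0.18 (SE 0.17) for EIF2AK3 and 0.21 (SE 0.18) for ATF6, with adjusted p of 0.58 and 0.54 in limma. ERN1, the endonuclease that splices XBP1, had 7.01, 7.18 and 7.05 in large pools against 7.03, 7.06 and 7.02 in small pools. Its values spanned the narrowest range of the sensors, and its log2 fold change was 0.04 (95% confidence interval -0.18 to 0.27, adjusted p = 0.82 in limma).

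Of the remaining members with sensing or feedback roles, MBTPS2, the protease that makes the second cut in ATF6, had a log2 fold change of 0.21. Another MBTPS2 probe set, dimmer and also assigned to a further symbol, had means of 6.68 in large pools and 6.84 in small pools. That is a difference of -0.16, opposite in sign and with no test. MBTPS1, the protease of the first cut, had a log2 fold change of -0.36. MBTPS1 varied widely among small pools, with 8.11, 8.46 and 9.12 in pools 5, 6 and 7, and had 8.21, 8.59 and 7.82 in large pools 2, 3 and 4. CREB3L2, a membrane-bound factor related to ATF6, had -0.26, and the 2 feedback genes of the ATF4 branch, TRIB3, a pseudokinase, and PPP1R15A, which directs dephosphorylation of eIF2 alpha, had -0.19 and -0.06. PPP1R15A had 0.02 when arrays were centred on their medians. TRIB3 was above the floor in 1 of 3 large pools and 3 of 3 small pools. In all 5 genes the groups overlapped.

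**Figure D2:**
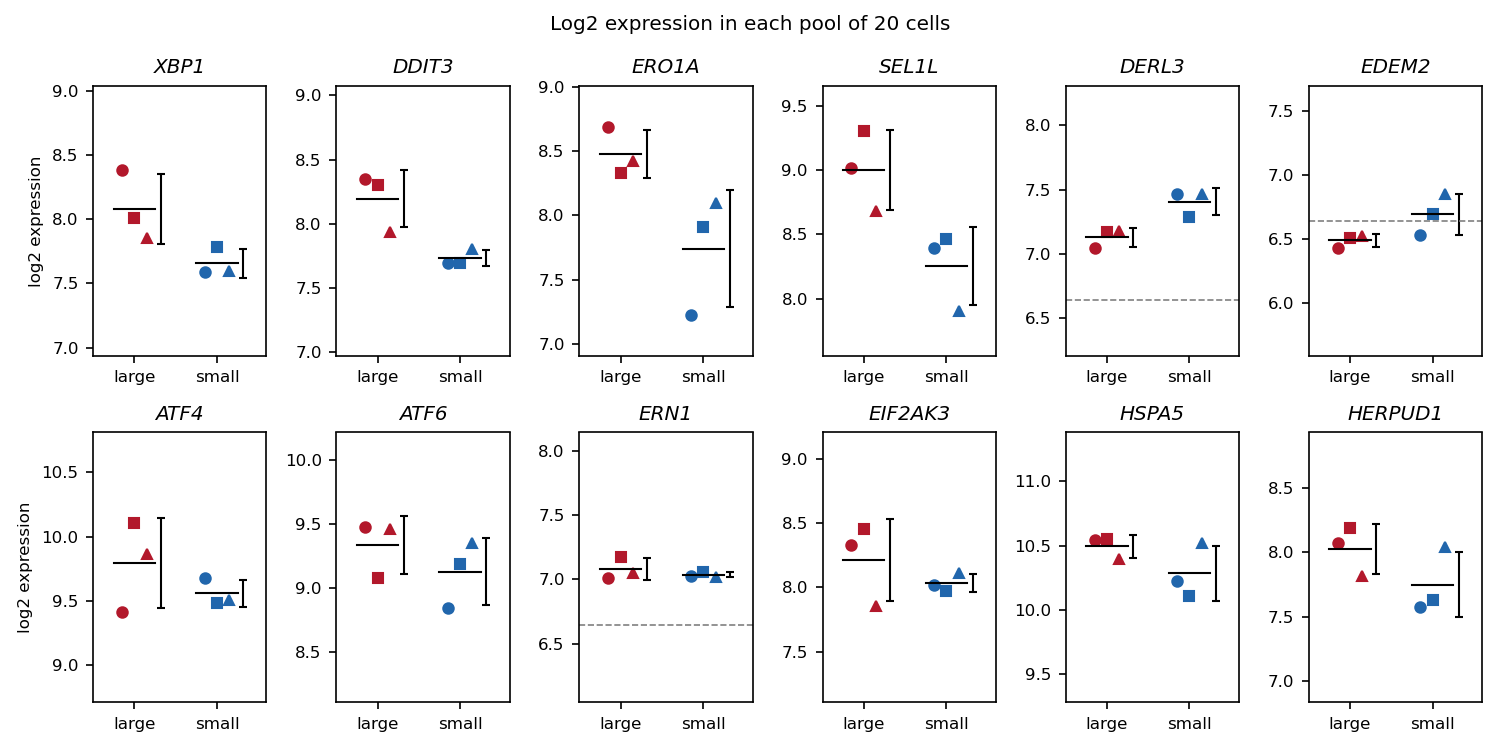
Log2 expression of 12 members in each pool of 20 cells, large pools at left and small pools at right, each panel over an equal span. Points are pools, black lines the mean and bars the SD (n = 3 each), and dashed lines the floor of 6.64 where it falls in the panel; XBP1, DDIT3, ERO1A and SEL1L have all large pools above all small pools, DERL3 and EDEM2 the reverse, and the other 6 overlap.

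Of 13 ER folding factors 4 had a log2 fold change above 0 and 9 below, with a median of -0.07. These became 7 above, 6 below and 0.01 when arrays were centred on their medians. Before centring 69.2% of these factors lay below 0, near the 66.4% of all genes, whose median was -0.11 (0.08 in the 2 highest classes of signal). The oxidoreductase ERO1A stood apart from the rest. ERO1A, which passes electrons from protein disulfide isomerase to oxygen, had a log2 expression of 8.69, 8.33 and 8.43 in large pools 2, 3 and 4, against 7.23, 7.91 and 8.09 in small pools 5, 6 and 7. The groups did not overlap, with a gap of 0.23, and small pool 5 was the lowest of all. Means of 8.48 ± 0.19 in large pools and 7.74 ± 0.46 in small pools (SD, n = 3 each) gave a log2 fold change of 0.74 (SE 0.24, 95% confidence interval 0.14 to 1.33, 1.67-fold) with an adjusted p of 0.32 in limma. Leaving out small pool 5 gave a log2 fold change of 0.48, and leaving out large pool 2 gave 0.64 with an unadjusted p above 0.05. Its paralogue ERO1B lay under the floor in all 6 arrays, with a log2 fold change of -0.04 that became 0.04 when arrays were centred on their medians.

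HSPA5 encodes BiP, the Hsp70 of the ER that holds the sensors inactive and is the usual readout of the response. It had a log2 expression of 10.54, 10.55 and 10.39 in large pools 2, 3 and 4, against 10.23, 10.11 and 10.52 in small pools 5, 6 and 7. Small pool 7 lay between the large pools, so the groups overlapped. The means were 10.50 ± 0.09 in large pools and 10.28 ± 0.21 in small pools (SD, n = 3 each), a log2 fold change of 0.21 (95% confidence interval -0.12 to 0.54, 1.16-fold) with an adjusted p of 0.43 in limma. Its promoter, chr9:125241294-125241593 of GRCh38.p14, minus strand, holds an ERSE near the start, in capitals, and is shown for the same reason as that of XBP1.
HSPA5: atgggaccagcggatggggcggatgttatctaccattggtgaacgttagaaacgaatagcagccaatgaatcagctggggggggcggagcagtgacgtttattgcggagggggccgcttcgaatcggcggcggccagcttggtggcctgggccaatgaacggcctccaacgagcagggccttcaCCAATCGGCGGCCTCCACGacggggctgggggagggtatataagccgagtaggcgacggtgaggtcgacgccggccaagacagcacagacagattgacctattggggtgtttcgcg

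The other chaperones and folding factors had log2 fold changes between -0.31 and 0.09, and the groups overlapped in each. HSP90B1, the Hsp90 of the ER, had a log2 fold change of -0.05 (0.03 after centring), CALR and CANX, the lectin chaperones calreticulin and calnexin, had -0.12 and 0.09, and the disulfide isomerases PDIA4, PDIA6 and P4HB had -0.07 (0.01 after centring), -0.08 and -0.16. HYOU1, a large Hsp70-type chaperone and exchange factor of BiP, had -0.15, and SDF2L1, a partner of ER DnaJ proteins, had -0.17. SDF2L1 was above the floor in 1 of 3 large pools and 2 of 3 small pools. CRELD2, a secreted ER stress protein, had -0.31 (SE 0.16, adjusted p = 0.37 in limma), and MANF, a secreted ER protein that binds BiP, had 0.00. PDIA3 could not be measured by the rule, since both of its probe sets are also assigned to PDIA3P1. Their means were 11.00 and 10.94 in large pools, against 10.80 and 10.82 in small pools, with no test.

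Of 13 components of ER-associated degradation 8 had a log2 fold change above 0 and 5 below, with a median of 0.07. This median was 0.16 after centring, but -0.0093 without small pool 6 and -0.0189 without small pool 7. Over all genes 33.6% lay above 0, with a median of -0.11, and genes of the 2 highest classes of signal had a median of 0.08. SEL1L was higher and DERL3 lower in large pools at an unadjusted p under 0.05. SEL1L, the scaffold of the retrotranslocation ligase, had a log2 expression of 9.02, 9.31 and 8.68 in large pools 2, 3 and 4, against 8.39, 8.47 and 7.90 in small pools 5, 6 and 7. Every large pool lay above every small pool, with a gap of 0.22. Means of 9.00 ± 0.31 in large pools and 8.25 ± 0.31 in small pools (SD, n = 3 each) gave a log2 fold change of 0.75 (SE 0.22, 95% confidence interval 0.22 to 1.28, 1.68-fold) with an adjusted p of 0.32 in limma. SYVN1, the ligase that SEL1L scaffolds, had a log2 fold change of 0.01, with -0.02 after further quantile normalization.

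DERL3, a derlin of the retrotranslocation channel, had a log2 expression of 7.05, 7.17 and 7.17 in large pools 2, 3 and 4, against 7.47, 7.28 and 7.46 in small pools 5, 6 and 7. All large pools lay below all small pools. The log2 fold change was -0.27 (SE 0.10, 95% confidence interval -0.52 to -0.03, 0.83-fold) with an adjusted p of 0.33 in limma, and it was -0.19 with an unadjusted p above 0.05 when arrays were centred on their medians. EDEM2, a mannosidase-like factor that marks misfolded glycoproteins, had 6.43, 6.51 and 6.53 in large pools 2, 3 and 4, against 6.53, 6.69 and 6.85 in small pools 5, 6 and 7. These pools lay at the floor, which 0 of the 3 large and 2 of the 3 small pools exceeded, and the gap between the groups was 0.0050. The log2 fold change of EDEM2 was -0.20 (SE 0.11, adjusted p = 0.40 in limma).

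HERPUD1, a membrane protein of the ligase complex and a target of ATF6 and ATF4, had a log2 expression of 8.07, 8.19 and 7.82 in large pools 2, 3 and 4, against 7.57, 7.63 and 8.04 in small pools 5, 6 and 7. Small pool 7 overlapped the large pools, and the log2 fold change was 0.28 (SE 0.17, adjusted p = 0.42 in limma). The related mannosidase-like factors EDEM1 and EDEM3 had 0.10 and 0.17, and the derlins DERL1 and DERL2 had -0.28 and -0.07 (DERL2 0.01 after centring). The lectins OS9 and ERLEC1, which bind trimmed glycans, had -0.09 and 0.07. The AAA ATPase VCP had 0.09, and SELENOS, a selenoprotein that recruits it, had 0.08.

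In most of these members the pooled SD among replicate pools was larger than the absolute log2 fold change between phenotypes. The pooled SD had a median of 0.21 over the 37 members, against 0.18 over all genes, which were not matched to the members for signal. The widest were MBTPS1 at 0.46, OS9 and DERL1 at 0.40, VCP at 0.39 and ERLEC1 at 0.38. In OS9, small pool 5 had 10.47, against 9.52 and 9.57 in the other small pools, and in ERLEC1 the small pools had 9.95, 9.36 and 10.41. The range exceeded 0.5 in 13 members among large pools and in 9 members among small pools, so the spread was not confined to one phenotype.

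**Figure D3:**
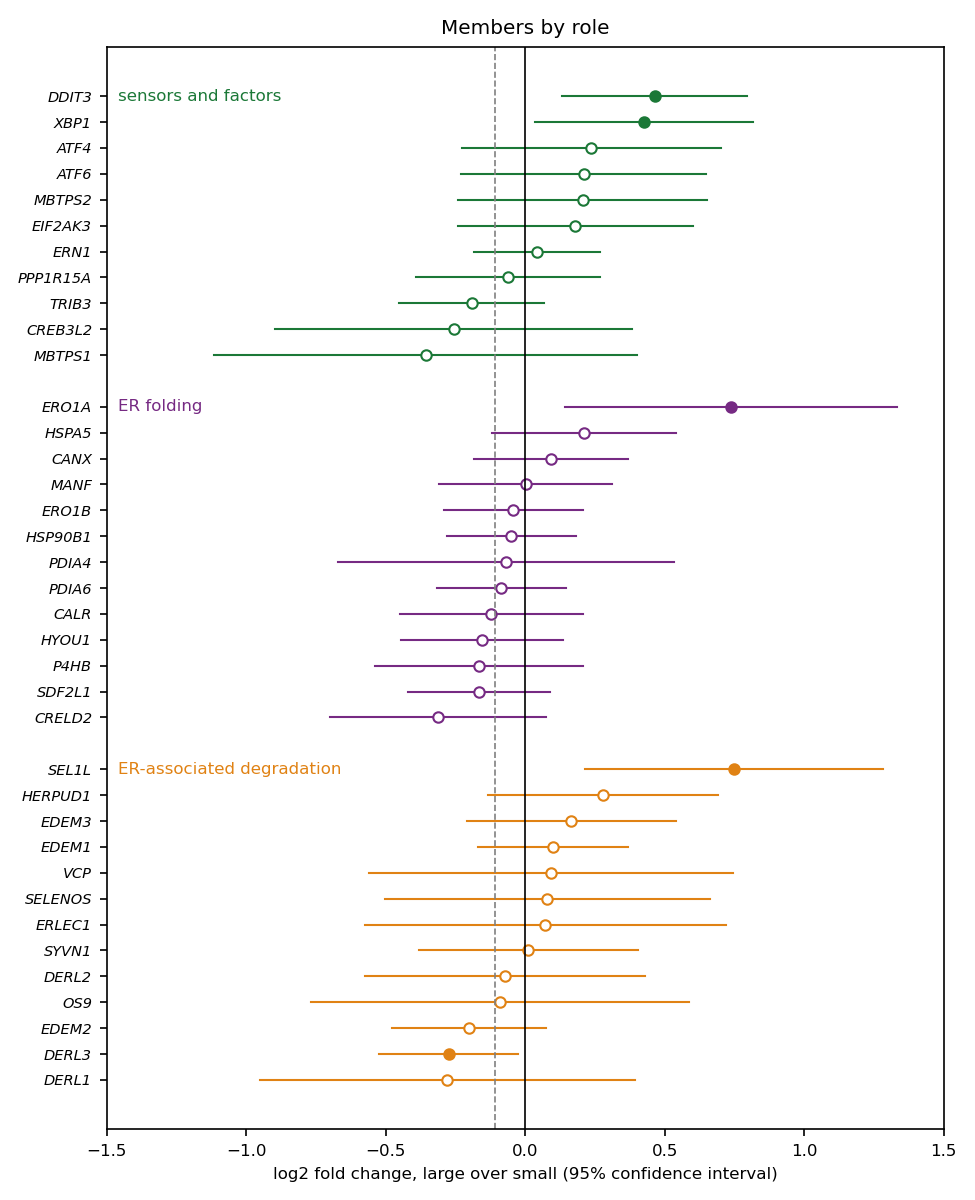
Log2 fold change, large over small, of the 37 members by role, with 95% confidence intervals of the limma fit. Filled points mark an unadjusted p under 0.05 and the dashed line the median of all genes, -0.11; the intervals of XBP1, DDIT3, ERO1A, SEL1L and DERL3 leave out 0, and those of the other members include it.

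Promoters of the members were searched for the elements of the response. ERSE was read as CCAAT, 9 bases of any kind and CCACG. ERSE-II was read as ATTGG, 1 base of any kind and CCACG. The core of the unfolded protein response element (UPRE) was TGACGTGG, and that of the CARE, bound by ATF4 with C/EBP factors, was TGATGNAA. Both strands of the RefSeq promoters of GRCh38.p14 were searched. Of 35 members with a promoter entry 10 held an ERSE or ERSE-II, against 46 of 35116 promoters (0.131%). ERSE was found in 7 members (0.0769% of all promoters), ERSE-II in 3 (0.0541%), the UPRE core in HYOU1 and VCP (0.729%) and the CARE core in HERPUD1 (3.62%). In HYOU1 the UPRE core overlaps the upstream ERSE-II. The list was drawn up from known genes of the response, and the ERSE was itself defined on promoters of ER chaperones, so these shares are a description of the list only. DERL1 and DERL3 were not searched.

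The 12 matches are printed in the sense of the gene with 7 bases on each side. Their fixed bases are alike because the search required them, and only the free bases and the flanks can differ. Capitals mark the match, which reads as the motif or, for HSP90B1 downstream, CALR, CRELD2, HYOU1, SDF2L1 and ERO1B, as its reverse complement.
HSP90B1 upstream: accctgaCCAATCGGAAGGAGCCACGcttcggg
HSP90B1 downstream: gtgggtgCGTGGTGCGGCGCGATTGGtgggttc
CALR: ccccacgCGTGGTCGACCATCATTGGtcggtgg
CANX: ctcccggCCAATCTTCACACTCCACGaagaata
HSPA5: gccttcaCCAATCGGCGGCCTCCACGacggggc
HERPUD1: gacgccgATTGGGCCACGttgggag
XBP1: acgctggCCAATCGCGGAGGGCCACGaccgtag
CRELD2: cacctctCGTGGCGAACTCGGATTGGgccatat
HYOU1 upstream: cccgtgaCGTGGTCCAATcccaggc
HYOU1 downstream: cctgggaCGTGGTCCAATgagtacg
SDF2L1: tcggaagCGTGGACCAATcaaaacc
ERO1B: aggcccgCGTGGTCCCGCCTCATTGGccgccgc

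From the start, the element lies at -52 to -34 in XBP1, at -66 to -48 in HSPA5 and at -117 to -107 in HERPUD1. It lies at -243 to -225 in ERO1B, the member under the floor. The 10 members with an element had 4 log2 fold changes above 0 and 6 below, with a median of -0.05. After centring these were 6 above and 4 below, with a median of 0.0376, so the direction depends on the scaling. Among them XBP1 alone had an unadjusted p under 0.05. The 25 members searched that had no exact match showed 15 above 0 and 10 below, with a median of 0.04 (18, 7 and 0.13 after centring). DDIT3, ERO1A and SEL1L among them had an unadjusted p under 0.05. Only exact matches were counted, so members without a match may still hold variant elements. The windows of DDIT3 and SEL1L hold near matches, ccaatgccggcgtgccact to ERSE and cgtggtccaac to the reverse complement of ERSE-II. Each departs from the motif in its last base. A match is a stretch of letters and does not show that a factor binds there in these cells.

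**Figure D4:**
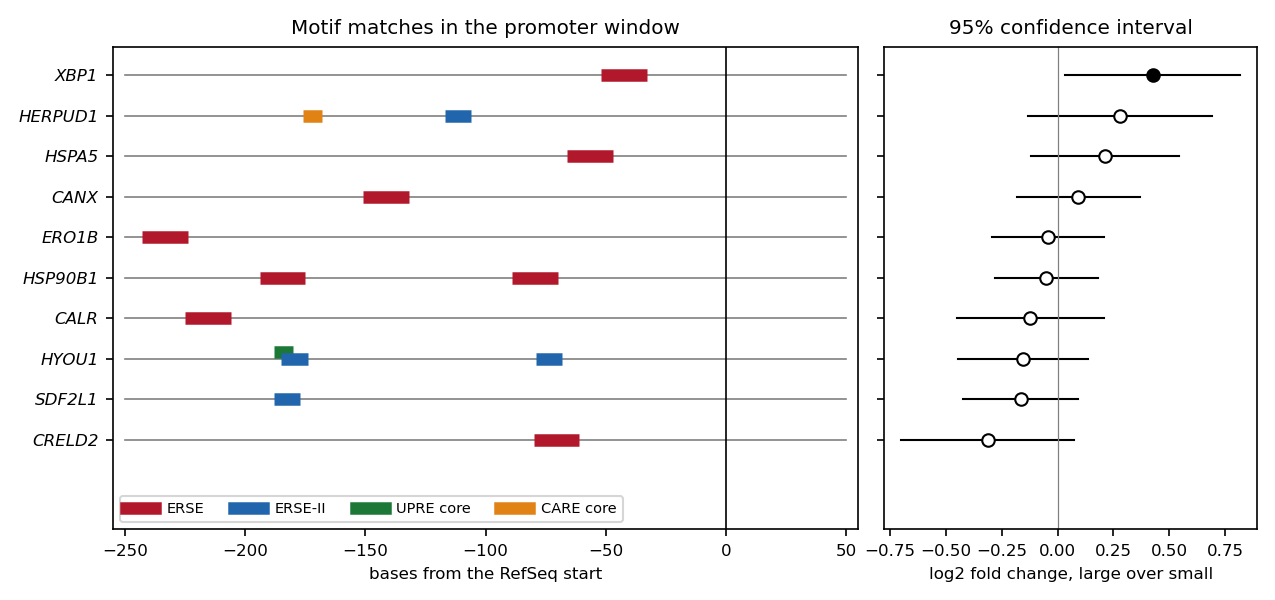
Left, positions of motif matches from 250 bases before to 50 after the RefSeq start in the 10 members with an ERSE or ERSE-II, ordered by log2 fold change. Right, log2 fold change of each, large over small, with its 95% confidence interval; the filled point, XBP1, has an unadjusted p under 0.05, and the other 9 intervals include 0.

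The other genes of the pathway, 81 measured, showed 41 log2 fold changes above 0 and 40 below. At an unadjusted p under 0.05, 8 (9.88%) were higher in large pools and 1 (1.23%) was lower, against 4.33% and 10.5% of all genes and 9.75% and 2.61% of genes in the 2 highest classes of signal, and 0 passed the adjusted test in limma. Of the 26 measured genes for other folding and translocation steps 5 were higher at that level, with a median log2 fold change of 0.21. Of 20 genes of the PERK and ATF4 branch 1 was higher and 14 had a log2 fold change below 0, with a median of -0.10, near that of all genes. Of 22 other degradation genes 2 were higher, with a median of -0.0028, and of 13 other ER stress factors 1 was lower, with a median of -0.06.

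The 4 genes with the smallest p among those higher in large pools act in folding, translocation and degradation. UGGT1, the glucosyltransferase that tests glycoprotein folding, had a log2 expression of 8.81, 8.78 and 8.88 in large pools 2, 3 and 4, against 8.36, 8.38 and 8.43 in small pools 5, 6 and 7. Its replicates were tight and the groups did not overlap, with a log2 fold change of 0.43 (SE 0.09, 1.35-fold). UBE2J1, the ubiquitin-conjugating enzyme of the SYVN1 pathway, had 8.49, 9.02 and 8.39 in large pools, against 7.72, 7.82 and 7.10 in small pools, a log2 fold change of 1.09 (SE 0.26, 2.12-fold). SEC63, a translocon component that recruits BiP, had 10.94, 11.00 and 10.76 in large pools, against 9.46, 10.36 and 9.98 in small pools, a log2 fold change of 0.97 (SE 0.23, 1.96-fold). Large pools were also the higher group for SSR3, a subunit of the translocon-associated protein complex, at 9.22, 9.53 and 9.58 against 8.91, 8.99 and 8.86 in small pools, a log2 fold change of 0.53 (SE 0.13, 1.44-fold). The adjusted p of each was 0.32 in limma.

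Among genes lower in large pools the 4 with the smallest p lay near or under the floor. CREB3L3, a membrane-bound factor best known from liver, had 6.54, 6.37 and 6.60 in large pools 2, 3 and 4, against 6.75, 6.82 and 6.81 in small pools 5, 6 and 7. It was above the floor in 0 of 3 large and 3 of 3 small pools. Its log2 fold change was -0.29 (adjusted p = 0.32 in limma), and its unadjusted p was under 0.05 in 5 of 13 alternatives, not after centring (-0.20) or quantile normalization (-0.21). CHAC1, a glutathione-degrading target of ATF4, had a log2 fold change of -0.28, SESN2, a stress-induced regulator of mTORC1, had -0.23 and WFS1, a membrane glycoprotein of the ER, had -0.26, with adjusted p between 0.34 and 0.38 in limma. SESN2 was under the floor in all 6 arrays. DNAJB9, the ER DnaJ protein ERdj4 and a known target of spliced XBP1, was chosen after its values were seen and had 7.97, 7.86 and 8.03 in large pools, against 7.62, 6.53 and 6.52 in small pools. All large pools lay above all small pools, but small pools 6 and 7 were under the floor, so the fitted log2 fold change of 1.06 (SE 0.31, adjusted p = 0.32 in limma) rests on values of which 1 of 3 in small pools exceeded it.

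**Figure D5:**
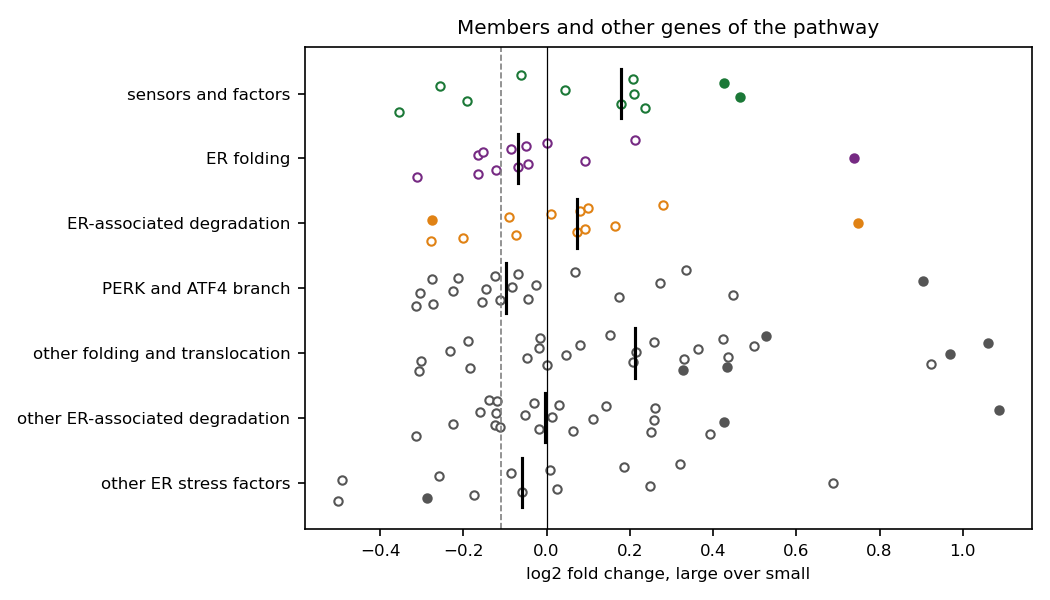
Log2 fold change, large over small, of each member (coloured, by role) and of the 81 other genes of the pathway (grey). Filled points have an unadjusted p under 0.05, black bars are list medians and the dashed line is the median of all genes, -0.11; the medians lie between -0.10 (PERK and ATF4 branch) and 0.21 (other folding and translocation).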

How the data were processed

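Expression was measured in 3 pools of large and 3 pools of small MUG-Chor1 cells on Affymetrix Human Gene arrays. Each array has a column of log2 expression that the authors made by robust multi-array averaging and deposited. Affymetrix Expression Console is credited in the submitters' processing notes and the affy package of R in the methods. A chip definition was not given in the sources used here. Quadruplicate pools are described in the methods, and 3 per phenotype were analysed here. Columns hold single pools, and the number of columns not used was 0.

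Of 32321 probe sets, 19158 carried 1 gene symbol, 1388 several and 11775 none. Per gene the single-symbol probe set with the highest mean was kept, which gave 18404 genes. Large minus small was tested with limma 3.58.1 in R 4.3.3 (lmFit and eBayes, no covariate) with Benjamini-Hochberg adjustment over all genes, after the script was tested on simulated data. No filter on level was applied, so that each member was tested. The number of arrays limits the precision. Alternatives were other scalings, filters on level and variation, variance settings, array weights, the mean of all single-symbol probe sets and leaving out each pool.

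The members and lists were chosen with earlier results of these data known. All members are named. Values per pool are given for members with an unadjusted p under 0.05, for those whose groups do not overlap and for HSPA5, XBP1, DDIT3, ATF4, ERN1, EIF2AK3 and ATF6. Values per pool of HERPUD1, MBTPS1, OS9 and ERLEC1 were added after they were seen. Of the other pathway genes those named by rule are the 4 of smallest p for each direction, and DNAJB9 was added after its values were seen. Promoter sequences came from RefSeq (GRCh38.p14), where 35 measured members matched by symbol.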

Additional observations from a re-analysis of the deposited data

How the results depend on the processing

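Under 14 alternatives 0 members passed the adjusted test with limma. At an unadjusted p under 0.05, DDIT3 was higher in large pools in 13 of 13 alternatives that tested it, SEL1L in 13 of 14, ERO1A in 12 of 13 and XBP1 in 8 of 13, and DERL3 was lower in 5 of 13. XBP1 was not under 0.05 without large pool 2 or 3, without small pool 5 or 7, or with a variance trend and robust fit, ERO1A was not without large pool 2, and SEL1L was not after the filter on level and variation. With 1 pool left out 3 to 5 members were higher at an unadjusted p under 0.05, against 3.72% to 4.69% of all genes. Lower members numbered 0 or 1, against 5.55% to 8.64% of all genes. The count was 0 without large pool 3 and without small pool 5 or 7. The lower member was CREB3L2 without large pool 2, CRELD2 without large pool 4 and DERL3 without small pool 6. ATF4 joined the higher members without large pool 2, EIF2AK3 without large pool 4, and HSPA5 and HERPUD1 without small pool 7. The count lower was 0 after centring, quantile normalization or removal of the trend with signal, against 3.9%, 5.9% and 2.53% of all genes. Groups did not overlap in 8 to 12 members with 1 pool left out, where fewer values must separate. The matching share of all genes was not computed, so this count cannot be read as a trait of the members. With all 6 pools, large pools lay wholly above small pools in 5.48% of all genes and wholly below in 21.6%. A filter on level and variation kept 2 members, SEL1L and CREB3L2. Counts were then 0 higher and 0 lower, against 11.1% and 1.65% of the genes kept, which with 2 members says nothing of the list. Groups did not overlap in 1 of the 2, and the matching share of genes was not computed. The medians, each of 1 member, were -0.26 for sensors and 0.75 for degradation, with none for folding. Centring gave medians of 0.0148 for folding and 0.16 for degradation, and the mean of all probe sets gave 0.0433 for sensors. With 1 pool left out the medians spanned 0.0579 to 0.166 for sensors, -0.11 to -0.0308 for folding and -0.0189 to 0.0805 for degradation, which was -0.0093 without small pool 6 and -0.0189 without small pool 7.

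Signs turned in some members. Centring gave PPP1R15A 0.0215, HSP90B1 0.0345, PDIA4 0.0148, ERO1B 0.0406 and DERL2 0.0112, quantile normalization MANF -0.0414 and SYVN1 -0.0216, the mean of all probe sets ATF4 -0.056, and removal of the signal trend PPP1R15A 0.0617, ERO1B 0.0511 and MANF -0.0378. With 1 pool left out the ranges crossed 0 for MANF (-0.0735 to 0.0862), SYVN1 (-0.11 to 0.17), OS9 (-0.26 to 0.22), SELENOS (-0.0653 to 0.32), ERN1 (-0.0049 to 0.0779), PPP1R15A (-0.19 to 0.0122), PDIA4 (-0.28 to 0.15), VCP (-0.0735 to 0.36), DERL2 (-0.22 to 0.0857), ERLEC1 (-0.20 to 0.32) and ERO1B (-0.10 to 0.02). The other 24 members kept their sign in every alternative run, and the cause of the changes was not tested. No paired analysis was possible because the large pools (2, 3, 4) and the small pools (5, 6, 7) share no number.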
